A study of Mus musculus with 16 samples.

Results

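Long single-exon m6A peaks are the regions of the peak table that consist of 1 exon block of at least 200 bases, leaving out zinc finger genes named Zfp with a number and genes with provisional Gm or Rik names. They numbered 2230 of 13083 peaks (17.0%) and lay in 1662 of the 6847 genes with any peak (24.3%). A further 183 peaks had the same shape and were left out by name. RNA and its N6-methyladenosine (m6A) were profiled in bone of wild type mice after ovariectomy, the surgical removal of the ovaries, and after a sham operation. Each arm had 4 immunoprecipitated (IP) libraries, made from RNA fragments enriched with an m6A antibody, and 4 input libraries, made from the RNA before the pull-down, 16 in all. Libraries titled OVX were taken as the ovariectomy arm and those titled NC as the sham arm. For the IP libraries the labels conflict, since their treatment field reads ovariectomy for all of them, including the 4 titled NC. The labels do not give the animals' age or sex, the time after surgery or the bone, and do not say whether each library came from a separate animal.

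N6-methyladenosine is a methyl group placed on adenosines inside messenger RNA by a complex of the methyltransferases Mettl3 and Mettl14. It is removed by the demethylases Fto and Alkbh5, and reader proteins of the Ythdf and Ythdc families bind it and alter the decay, translation or nuclear handling of the RNA. In mammalian RNA the mark is known to fall mostly at a short motif around the bases GGAC, in long internal exons and in last exons near the stop codon, and to be sparse near the junctions of short exons.

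The RefSeq windows around gene starts (GRCm38.p6, 250 bases before to 50 after each start, 32851 windows of 300 bases) were the one source of genome sequence used here. They overlapped 14 members, through 16 windows. Of these windows, 2 were covered whole. Both held GGAC on the strand of the member's gene, as did 65.6% of all windows on their own gene's strand, so its presence sets neither apart. The window inside the member of Pcyt1a, the rate-limiting enzyme of phosphatidylcholine synthesis, held GGAC 4 times, 2 of them as GGACT, and the reverse complement GTCC 0 times. GGACT, which contains GGAC, was found in 26.1% of windows and GTCC in 66.1%. The window inside the longest member, in Apobr, a receptor for apolipoprotein B, is the start window of Cln3, a gene on the minus strand. On the strand of Apobr, opposite to that of Cln3, it held GGAC once and GTCC once. A Cln3 member of 350 bases with a ratio of IP over input of 1.95 lies wholly within the Apobr member. Not every overlapping stretch held GGAC, with none in 164 bases of Zrsr1 or 162 bases of Pi4kb. All stretches come from windows at gene starts and do not stand for members elsewhere. The Cic member overlaps the start window of Gm45974, a gene on the minus strand, by 211 bases. On the strand of Cic these held GGAC 1 time and GTCC 1 time. Stretches of 30 bases around the motif are shown for 3 members that hold it, chosen for that. GGAC is in capitals and the strand of the member's gene is read 5′ to 3′.
Pcyt1a, chr16:32431166-32431195, plus strand: atgacagccaagaGGACtgtgacccagggg
Pcyt1a, chr16:32431229-32431258, plus strand: cagtaaatgcgagGGACtctgacctcggag
Apobr, chr7:126585938-126585967, plus strand: agcatgtgacagaGGACagcaaagagatag
Cic, chr7:25271033-25271062, plus strand: aggaggctgagcgGGACcctggagctgagg
The 3 members that hold these stretches had enrichments of IP over input of 2.07 (Pcyt1a), 2.45 (Apobr) and 2.12 (Cic, a transcriptional repressor) in the authors' deposited table. Each of these values is within the middle of the range of all members given below. A match to the motif is a description of the letters and not a mapped methylation site.

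Members were mostly short of their kind and stepped in length. Their median was 250 bases (quartiles 201 and 349), the shortest had 200 bases and the longest 2150, and together they covered 691281 bases, counting shared bases more than once. Of the members, 2082 (93.4%) had a length within 3 bases under or 1 base over a multiple of 50. The longest member lay in Apobr (2150 bases, chr7:126585415-126587564), followed by Uaca, a regulator of stress-induced apoptosis, with 1998 bases. Golgb1, the Golgi tether giantin, held both the third, with 1647 bases, and the sixth, with 1348 bases. Zbtb1, a transcription factor needed for lymphocyte development, held 1 of 1599 bases and Resf1, a factor in silencing of retroelements, 1 of 1350 bases. The 674 members of 200 to 204 bases had a median enrichment of 1.97, and the 316 single-exon peaks just under the minimum, of 195 to 199 bases and the same kinds of names, had 1.95 in the authors' deposited table.

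Enrichment of IP over input was high in members and greater in longer ones. The authors' deposited table gave members a median ratio of 2.17 (quartiles 1.85 and 2.54), against 1.69 (1.45 and 2.0) for the 5418 single-exon peaks under 200 bases and 2.04 (1.75 and 2.41) for the 2602 multi-exon peaks with at least 200 exonic bases. Names were left out of members alone, and with the same names left out the 4961 short and 2546 long multi-exon peaks had the same medians, 1.69 and 2.04. A ratio of at least 2 was reached by 1438 members (64.5%), against 37.3% of all peaks, 26.2% of the short single-exon peaks and 54.0% of the long multi-exon peaks. By length class, the members' median ratio was 2.0 at 200 to 249 bases, 2.13 at 250 to 299, 2.30 at 300 to 399, 2.44 at 400 to 599 and 2.69 in the 114 members of at least 600 bases. Each class was above the one before it, and the middle ranges of neighbouring classes overlapped. Spearman's correlation between ratio and length was 0.36 across the 2230 members, which share libraries and in part genes. The table holds 1 value per peak with no error, and no test was run between these classes.

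**Figure D1:**
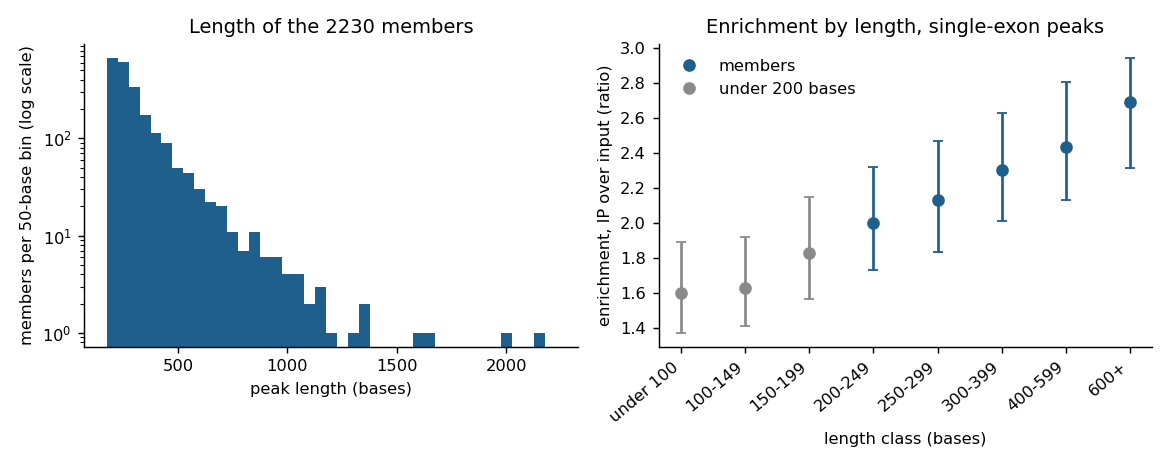
Left, number of members by peak length in bases, with a log count axis; most have 200 to 349 bases and the longest 2150. Right, enrichment of IP over input (a ratio, linear axis) by length class of single-exon peaks, with points at medians and bars from the lower to the upper quartile; the medians climb to 2.69 in the longest class, and the medians of the 3 grey classes under 200 bases lie below all member classes.

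The difference from shorter peaks also stood within genes. In the authors' deposited table, 819 genes had both a member and a single-exon peak under 200 bases, and the median ratio of the members was higher in 650 of them (79.4%), lower in 168 and equal in 1. The median within-gene gap was 0.41. Against multi-exon peaks of at least 200 exonic bases the picture was closer to even, with members higher in 235 of 408 genes (57.6%) and a median gap of 0.09. The level of the gene's RNA went little with the ratio. In 4 equal-sized classes of members by mean normalized RNA count, members had median ratios of 2.11, 2.24, 2.20 and 2.15, low to high, and short single-exon peaks in the same count ranges had 1.71, 1.70, 1.67 and 1.66. Spearman's correlation of the members' ratio with the mean count was -0.01, and that of their length with the mean count was 0.17.

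The 6 highest enrichments included genes of several nuclear proteins. Pwwp2a, a chromatin reader that binds the histone variant H2A.Z, had a ratio of 5.47 in the authors' deposited table (448 bases). Sox4, a transcription factor of a single-exon gene that acts in bone and lymphocyte precursors, reached 5.43 (250 bases) in the authors' deposited table. The splicing regulator Nsrp1 stood at 5.38 in a member of 990 bases, for which the authors' deposited table gives a log10 p of -29.9 against input, against a median of -11.0 over members. Prdm9, the histone methyltransferase that places meiotic recombination, had 4.86 in the authors' deposited table, at a mean RNA count of 675. Phactr2, an actin and phosphatase 1 binding protein, had 4.84, and Ppp3ca, the catalytic subunit of calcineurin, had 4.50 in the authors' deposited table. None of these 6 had a difference p between the arms under 0.05.

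Members lay toward the ends of genes, as did other single-exon peaks. On the GRCm38.p6 annotation 2223 members were inside the gene of their name. Along the gene span, introns included, from start (0) to end (1), their midpoints had a median of 0.86 (quartiles 0.60 and 0.96). The last 10% of the span held 923 members (41.5%), against 46.7% of short single-exon peaks, 14.2% of long multi-exon peaks and 32.6% of all peaks. The first 10% held 84 members (3.78%), against 5.76% of short single-exon peaks and 2.39% of long multi-exon peaks. Within 500 bases of the annotated gene end lay 9.36% of members, against 12.6% of short single-exon peaks. Between 60% and 70% of the span lay 8.28% of members, against 5.65% of short single-exon peaks. Exon boundaries, coding regions and untranslated regions were not used here, so a long internal exon cannot be told from a last exon.

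**Figure D2:**
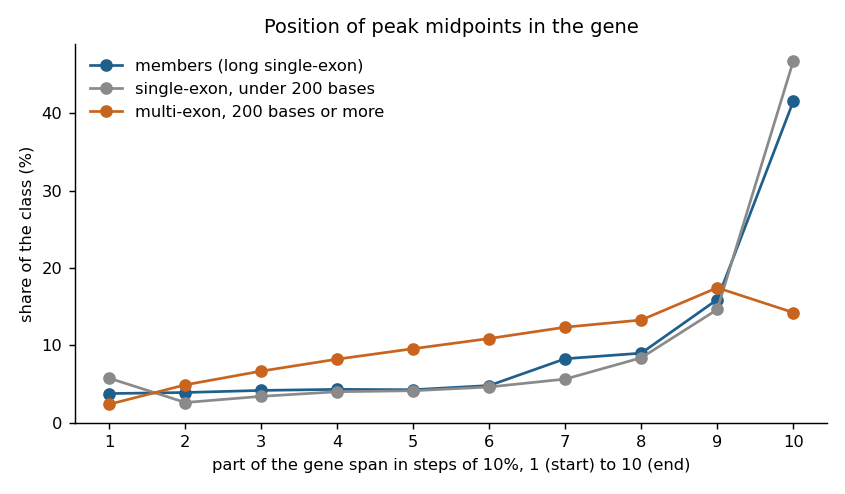
Share of each peak class (%, linear axis from 0) by the part of the gene span, in steps of 10% from start to end, in which the peak's midpoint lies, introns included. Members (blue) and single-exon peaks under 200 bases (grey) both concentrate in the last 10%, with 41.5% and 46.7%, while multi-exon peaks (orange) peak in the step before it and hold 14.2% in the last.

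Of the members, 1510 (67.7%) were in genes on the plus strand of the genome, as were 67.7% of the long multi-exon peaks, 60.6% of all peaks and 56.9% of short single-exon peaks. The members thus had the same share as the other class of long peaks, and no test of these shares was run. Among genes with any peak, 28.1% of the 3987 on the plus strand had a member, against 19.0% of the 2860 on the minus strand. The members' median ratio was 2.20 on the plus strand and 2.11 on the minus strand in the authors' deposited table, and their median lengths were 251 and 250 bases. Some regions were listed for genes on both strands. In 7 pairs, 2 members on opposite strands shared over 90% of the shorter one, and in 5 of these pairs the ratios differed by at most 0.1. The same 201 bases were listed for Ergic2, a protein of transport between endoplasmic reticulum and Golgi, on the minus strand and for Far2, a fatty acyl reductase, on the plus strand, each with a ratio of 2.30 and a difference of -0.03 between the arms in the authors' deposited table. Xist, the RNA that silences an X chromosome, had 2.19 and its antisense Tsix 2.21 over nearly the same 350 and 348 bases in the authors' deposited table. The mean RNA counts of these 2 genes were 31777 for Xist and 73.0 for Tsix, so the like ratios came with very unlike levels. A member of Il1rap, the interleukin 1 receptor accessory protein, had 1.97 and shared all 199 bases of a peak listed for Gm20319 on the other strand, with 1.79, in the authors' deposited table, where Gm20319 had a mean RNA count of 0. The libraries were made with a stranded kit, and whether peaks were counted by strand is not given in the sources used here, so for these regions reads of a gene and of its antisense partner cannot be told apart. In all, 24 members shared bases with a single-exon peak on the opposite strand and 48 with a single-exon peak on either strand. Counting each set of overlapping members once left 2215.

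Most genes with members had a single one, and a minority had several. Of the member genes, 1289 had 1 member, 259 had 2 and 114 had 3 or more, and the last held 423 members. In 549 genes all peaks were members. Ahnak, a giant scaffold protein encoded largely by 1 exon, had 11 members among its 15 peaks. They lay within 15744 bases of chromosome 19, covered 31.2% of that span, and had ratios from 1.81 to 2.51 in the authors' deposited table. Bod1l, which protects stalled replication forks, had 8 members with ratios from 2.02 to 3.76, and Cenpf, a kinetochore protein, had 7 with ratios from 1.91 to 2.97 in the authors' deposited table. Mki67, the marker of dividing cells that coats mitotic chromosomes, had 8 members with 1.58 to 2.69, and all 8 differences between the arms were positive in the authors' deposited table, from 0.03 to 0.15 on the log2 scale, with none past a p of 0.05. Plec, the cytoskeletal linker plectin, had 7 members with 1.28 to 2.32 in the authors' deposited table, and they covered 63.1% of a span of 5074 bases. Of these 7, 6 had negative differences, and 2 neighbours were called, the one of 1049 bases with -0.14 (p = 0.0054) and the one of 201 bases with -0.23 (p = 0.021) in the authors' deposited table. Ttn, the giant spring protein of the muscle sarcomere, had 7 with 1.53 to 2.20 in the authors' deposited table, spread over 234309 bases. Ratios varied within genes. Among the 114 genes with 3 or more members, the within-gene standard deviation of the ratio had a median of 0.38 and the within-gene range a median of 0.79, beside a standard deviation of 0.53 over all members.

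**Figure D3:**
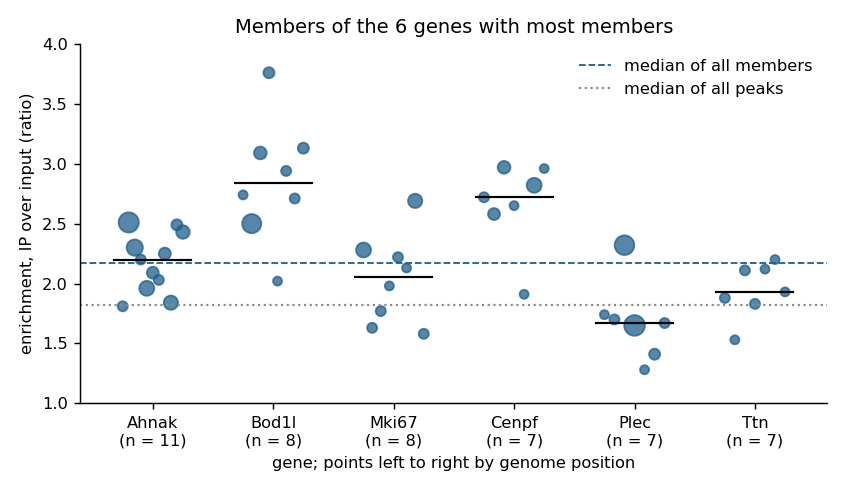
Enrichment of IP over input (a ratio, axis from 1 to 4) of each member in the 6 genes with most members; each point is 1 member, placed by genome position, with its area in proportion to length, and black bars are gene medians. All 8 Bod1l members and all Cenpf members but the lowest lie above 2, most Plec members lie below the median of all peaks (dotted, 1.82), and the median of all members is dashed (2.17).

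By kind of gene, 98.3% of members lay in protein-coding genes and 28 (1.26%) in 18 genes annotated as long noncoding RNA, while Tsix is annotated as antisense RNA and not counted among them. The share was 1.54% over all peaks and 0.602% over the 12302 peaks with the same kinds of names as members, so the order of the shares turns with the names left out. For 7 members the symbol had no entry in the annotation. The noncoding members had ratios from 1.25 to 3.20 with a median of 2.07 in the authors' deposited table. Malat1, a nuclear RNA of splicing speckles, had 3 members with 1.97, 2.76 and 2.19, and Neat1, the scaffold of paraspeckles, had 3 with 1.56, 1.59 and 1.97 in the authors' deposited table. The 2 Neat1 members with the lower ratios share 201 bases. Of the 28 noncoding members, 2 had a difference p under 0.05 in the authors' deposited table, against 4.92% of all peaks, and a count this small is no result about them. Foxd2os, an RNA antisense to the gene of a forkhead factor, had a difference of 0.49 (p = 0.0079), and the Neat1 member of 250 bases had -0.05 (p = 0.025) in the authors' deposited table. These noncoding genes were chosen after their values were seen.

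The difference between the arms was small in members and its calls made up a share close to that in the whole table. The authors' deposited table gives each peak a log2 difference of enrichment with a p and a false discovery rate, and does not say which arm is the numerator, so signs are given as deposited. A p under 0.05 was found for 95 of 2230 members (4.26%, exact 95% binomial interval 3.46 to 5.18, counting error only), against 4.92% of all peaks. The share was 3.14% of the short single-exon peaks and 9.07% of the long multi-exon peaks, and no test between classes was run. A threshold of 0.05 alone allows 5% of peaks, so the share in members is no result about them. The binomial interval treats members as independent, although they share libraries and in part genes. It therefore does not give the full uncertainty of the share. The share of all peaks set beside it includes the members. A false discovery rate under 0.05 was given to 0 members, the lowest being 0.26, and to 3 of all 13083 peaks in the authors' deposited table. The signs of the calls were near even in members, with 51 positive and 44 negative. Over all peaks positive calls made up 3.6% and negative calls 1.32%. The short single-exon peaks were split in the same way as members, with 93 positive and 77 negative calls, and the long multi-exon peaks unevenly, with 211 and 25. Of all members 54.9% had a positive difference, against 52.0% of short single-exon peaks and 78.1% of long multi-exon peaks.

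The size of the difference was smaller in longer classes, while the share of calls was highest from 400 bases up. The median absolute difference in the authors' deposited table was 0.14 at 200 to 249 bases, 0.12 at 250 to 299, 0.11 at 300 to 399, 0.09 at 400 to 599 and 0.08 from 600 bases up. The share with p under 0.05 was 3.52%, 3.61%, 3.08%, 6.20% and 13.2% in the same classes, the last being 15 of 114 members. Over all peaks it was 4.92%. The 2 longest classes rest on 16 and 15 calls, and no test between the classes was run. The median log10 p against input went from -10.3 in the shortest of these classes to -13.9 in the longest, and the median of the mean RNA counts of their genes from 2283 to 6541. The part of these measures in the share of calls was not tested. The largest absolute difference, 1.35 in Il20ra, a receptor for interleukin 20 (chosen here because it is largest), had a p of 0.30 in the authors' deposited table.

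**Figure D4:**
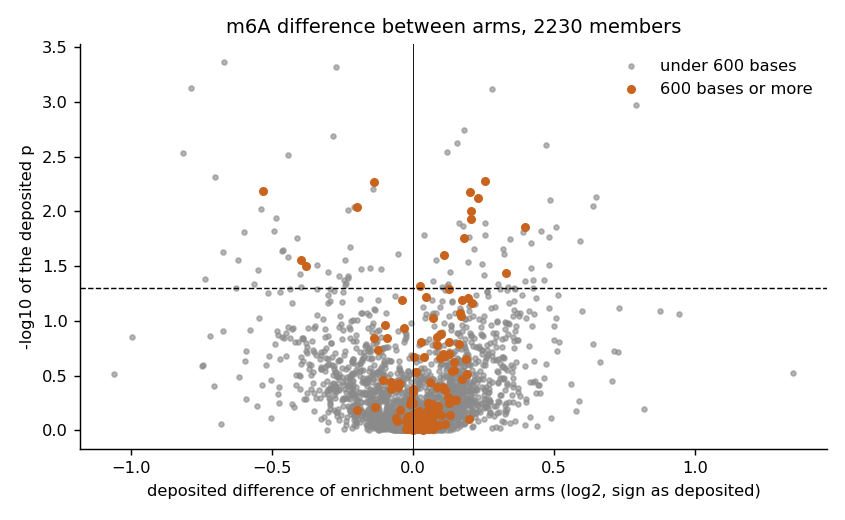
Deposited log2 difference of enrichment between the arms (sign as deposited) against the negative log10 of its deposited p, for all members; grey points have under 600 bases and orange points 600 or more, and the dashed line marks a threshold of 0.05. Of all members, 95 lie above the line, 51 to the right of 0 and 44 to the left, and the orange points stay closer to 0 than the grey ones.

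On the positive side the smallest p belonged to Arid4b, a subunit of a histone deacetylase complex, with a difference of 0.28 (p = 0.00076) over 547 bases in the authors' deposited table. Usp12, a deubiquitinase, had 0.79 (p = 0.0011) and Phf3, a regulator of RNA polymerase II elongation, had 0.18 (p = 0.0018) in the authors' deposited table. Tmem123, a cell surface mucin, had 0.16 (p = 0.0024) in the authors' deposited table. Itga4, the integrin chain that binds blood stem and lymphoid cells to Vcam1, had 0.47 (p = 0.0025), and Cmya5, a sarcomere and dystrophin-associated protein, had 0.12 (p = 0.0029) in the authors' deposited table. On the negative side, the coagulation factor gene F5 had -0.67 (p = 0.00044) and Il17ra, the receptor of the osteoclast-promoting cytokine interleukin 17, had -0.27 (p = 0.00048) in the authors' deposited table. Abl1, a tyrosine kinase that also acts in osteoblasts, had -0.79 (p = 0.00074), and Fam32a, a splicing-associated protein, had -0.28 (p = 0.0020) in the authors' deposited table. Purb, a single-stranded nucleic acid binding protein, had -0.82 (p = 0.0030) and Arhgap11a, a GTPase-activating protein, had -0.44 (p = 0.0031) in the authors' deposited table. All 12 miss the false discovery rate of 0.05.

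In the lists of bone cell genes, members lay in 1 of 10 osteoblast, 3 of 8 osteocyte and 3 of 7 osteoclast genes with a peak, against 24.3% of all genes with a peak. These counts are small, and no test was run on them. Of 21 osteoblast and bone matrix genes, 10 had a peak and 1 had a member, the collagen gene Col5a1, with a ratio of 1.88 and a difference of -0.26 (p = 0.23) in the authors' deposited table. Of 12 osteocyte genes, 8 had a peak and 3 had members, 4 in all. Of these 4 members 2 were called, beside 4.92% of all peaks, and a count this small is no result about them. Dmp1, a matrix phosphoprotein of osteocytes, had a ratio of 2.15 over 600 bases and a difference of 0.02 (p = 0.048) in the authors' deposited table. Mepe, another such phosphoprotein, had 1.68 over 347 bases with a difference of 0.13 (p = 0.035) and 2.48 over 693 bases with a difference of -0.06 (p = 0.82) in the authors' deposited table. Of 20 osteoclast genes and signals, 7 had a peak and 3 had members. Traf6, which relays the signal of the osteoclast receptor RANK, had a ratio of 2.80, Nfatc1, the master transcription factor of osteoclasts, 2.11, and the macrophage growth factor Csf1 1.53 in each of 2 members in the authors' deposited table, none with a p under 0.05. All 4 osteoclast members, 2 of them in Csf1, had negative differences in the authors' deposited table. So did 1006 of all 2230 members, and a count this small is no result about osteoclast genes. All 32 marker genes checked, for bone cells, cartilage, fat, endothelium, blood cells and muscle, were above a mean of 0 in the RNA, among them the osteoblast gene Bglap with a mean count of 1093 and the muscle gene Myh4 with 336368, and 6 of the 32 had a member. The lowest mean count was 15.3, of the osteoclast gene Calcr. A mean above 0 thus says little about how much of a cell type was present.

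Among signalling genes, the Wnt list had 12 members in 6 of its 20 genes with peaks (30%, against 24.3% of all genes with a peak). The tumour suppressor Apc, the scaffold that marks beta-catenin for destruction, had 6 of them, with ratios from 1.78 to 3.56 in the authors' deposited table. The Wnt receptors Fzd4 and Fzd7 had ratios of 2.93 and 2.60 in the authors' deposited table. Of the Wnt members 11 had positive differences and 1 a negative one, none with a p under 0.05. Of the 12, 6 share the gene Apc, and all 6 of these were positive. Over all members 54.9% had a positive difference, and a count this small is no result about Wnt genes. BMP, TGF-beta and activin genes had 6 members in 5 genes, led by Ltbp1, which anchors latent TGF-beta in the matrix, with 2.79 and the signal mediator Smad4 with 2.76 in the authors' deposited table. Notch genes had 7 members in 3 genes, led by the receptor Notch2 with 2.16 and the coactivator Maml1 with 2.15 in the authors' deposited table. Neither of these lists held a member with a p under 0.05.

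Among genes that modify chromatin, members lay in 23 of the 42 histone methylation and acetylation genes with peaks (54.8%) and in 18 of the 31 chromatin remodelling and DNA methylation genes with peaks (58.1%), 44 members in each list. Over all genes with a peak the share was 24.3%, and no test of these lists was run. Their median ratios were 2.32 and 2.31 in the authors' deposited table, against 2.17 over all members. The histone methyltransferase Nsd1 and the chromatin regulator Setd5 led the first list with 3.54 and 3.50 in the authors' deposited table. A p under 0.05 was found for 0 of 44 members of the first list and 5 of 44 of the second, 3 of them positive, where 4.26% of all members and 4.92% of all peaks had one. Beside Phf3, given above, Ankrd11, a nuclear receptor corepressor partner, had a difference of 0.20 (p = 0.017) and Atrx, an ATP-dependent remodeller, 0.08 (p = 0.028) in the authors' deposited table. The SWI/SNF subunits Arid1a and Arid2 had -0.40 (p = 0.049) and -0.40 (p = 0.037) in the authors' deposited table. Each of these values is that of 1 member, and the other members of these genes had no p under 0.05. Spindle, centrosome and DNA repair genes, a list picked for long exons, had 72 members in 23 of 32 genes with peaks and a median ratio of 2.49 in the authors' deposited table. In it 1 of the 72 members was called, in Rif1, a regulator of replication timing and repair, with 0.11 (p = 0.025) in the authors' deposited table. Transcription factors with few exons had 14 members in 12 of 35 genes with peaks and a median ratio of 2.42 in the authors' deposited table, led by Sox4 and by Zbtb7a with 3.05.

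Of the m6A machinery itself, 3 of 8 writer genes with peaks (37.5%) and 3 of 10 reader and eraser genes with peaks had a member, against 24.3% of all genes with a peak. Among the writers, Zc3h13, Rbm15b and Wtap, which anchor or recruit the methyltransferase pair, had 1 member each with ratios of 2.26, 1.91 and 1.85 in the authors' deposited table. Among readers and erasers, Ythdf2, which sends methylated RNA to decay, had 2.24, the nuclear reader Ythdc1 1.88 and Prrc2a 1.62 in the authors' deposited table. None of these 6 had a difference p under 0.05, and the nearest was Wtap with 0.31 (p = 0.051) in the authors' deposited table.

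Blood and muscle genes gave a similar range. B cell genes had 11 members in 8 of 17 genes with peaks, with a median ratio of 2.0 and none called in the authors' deposited table. Their highest were Bach2, which restrains plasma cell fate, with 2.48 and Pax5, the B lineage commitment factor, with 2.42 in the authors' deposited table. Rag1, the catalytic subunit of the recombinase of antigen receptor genes, had 3 members of 200 bases each with 1.70, 1.74 and 1.88, and its partner Rag2 had 1 with 2.31 in the authors' deposited table. Erythroid genes had 6 members in 2 of 10 genes with peaks, Bcl11a, the repressor of fetal globin, and the red cell ankyrin Ank1. Of the 3 Bcl11a members 2 were called with opposite signs, -0.30 (p = 0.035) and 0.45 (p = 0.015) in the authors' deposited table. Skeletal muscle genes had 12 members in 4 of 11 genes with peaks. Xirp2, an actin-binding protein of muscle, reached 4.41, and 1 Ttn member had a difference of -0.46 (p = 0.022) in the authors' deposited table. Calls were 2 of 6 erythroid and 1 of 12 muscle members, against 4.26% of all members and 4.92% of all peaks. Over all genes with a peak 24.3% had a member, and counts this small are no result about these lists.

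**Figure D5:**
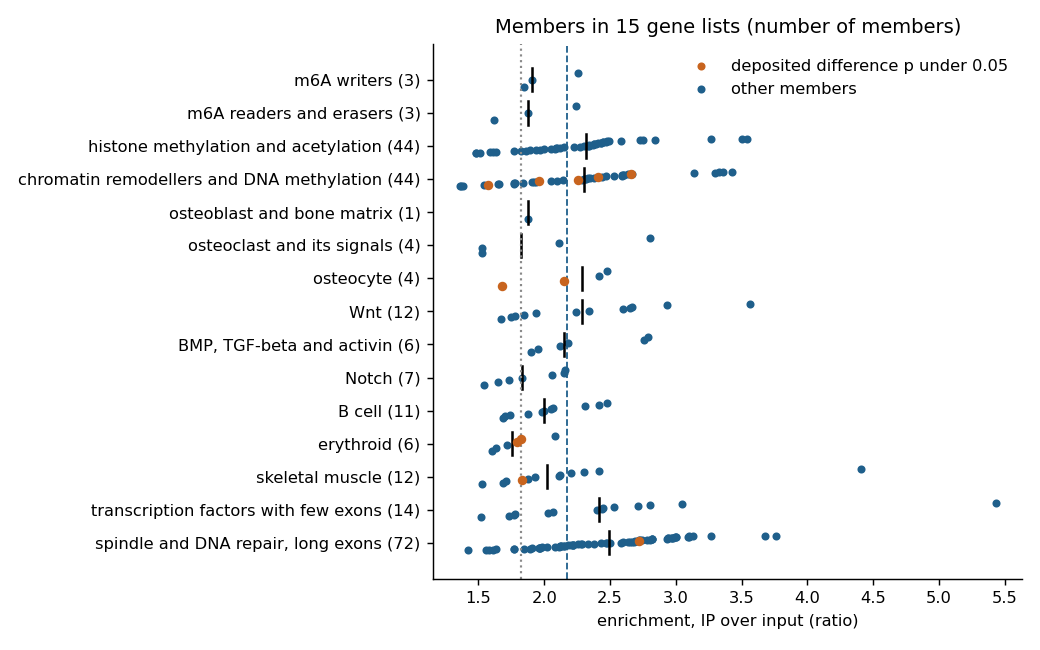
Enrichment of IP over input (a ratio, linear axis) of each member in 15 gene lists, with the number of members after each name; each point is 1 member, orange where its deposited difference p is under 0.05, and black bars are list medians. Dashed and dotted lines mark the medians of all members (2.17) and all peaks (1.82); the spindle and repair list has the most members, 72, and the osteoblast list 1.

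RNA of the genes with members was at a higher level than that of other genes and was called for change about as often. The median of the mean normalized count was 2398 over the 1662 member genes, 1733 over the 5185 genes with other peaks and 853 over all 15396 tested genes in the authors' deposited table. An adjusted p under 0.05 was found for 241 member genes (14.5%), against 13.7% of genes with other peaks and 12.2% of all tested genes. Of the 241, 129 were positive and 112 negative, and over all tested genes 6.07% were positive and 6.11% negative. As for m6A, the numerator arm of the RNA fold changes is not given, so their signs too are as deposited. In bulk bone a change in the number of cells of a type and a change in RNA per cell cannot be told apart. Positive calls of member genes had a median log2 fold change of 0.41 and negative calls one of -0.61 in the authors' deposited table.

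Of the 8 B cell genes with members, 6 were called in RNA, all positive, and 16 of the 24 genes of the whole B cell list were called. The B cell markers Cd79a and Vpreb1 had positive values too, 1.07 and 2.53 (log2 fold change), each with an adjusted p under 0.05 as the authors' deposited table gives it. The authors' deposited table gave Rag2 2.76 ± 0.42, Rag1 2.22 ± 0.39, Bach2 1.35 ± 0.27 and Cd72, a B cell coreceptor, 1.16 ± 0.32 (log2 fold change ± standard error, adjusted p from 1.9e-08 to 0.0054). None of the 4 skeletal muscle genes with members was called, and the nearest, Ttn, had -1.89 ± 0.70 (adjusted p = 0.053) in the authors' deposited table. Across the whole skeletal muscle list, with or without members, 6 of 21 genes were called for RNA. Among the most negative calls of member genes stood Fbxo32, the muscle atrophy ubiquitin ligase, with -2.20 ± 0.38, Cmya5 with -2.08 ± 0.59 and the sarcoplasmic reticulum protein Srl with -1.72 ± 0.62 in the authors' deposited table. The 4 skeletal muscle markers Acta1, Myh4, Ckm and Actn3 lay between -1.54 and -1.30, and the authors' deposited table gives Actn3 alone an adjusted p under 0.05. Of the bone cell markers, Col1a1 with 1.12, Bglap with 1.08 and Ctsk with -0.72 alone had an adjusted p under 0.05 there. The part of B cell and muscle content in these values was not tested. Fbxo32, Cmya5, Srl and the B cell genes given here were picked with their values in view. In other lists, per the authors' deposited table, Fzd7 had -0.65 ± 0.18 (adjusted p = 0.0082), Sox4 0.997 ± 0.160 (adjusted p = 1.3e-07) and Rbm15b 0.34 ± 0.06 (adjusted p = 9.4e-07). These are not all the calls outside the B cell list. The Wnt and writer lists had 1 called member gene each, the transcription factors with few exons 4, and the spindle and repair list 5. Further lists had called member genes too.

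Both an m6A difference p and an RNA adjusted p under 0.05 were found for 16 members in 14 genes (0.717% of members), against 0.772% of all peaks. Of the 95 members called for m6A, 16.8% lay in a gene called for RNA, close to the 14.6% of all members in such genes, so the count is no result about the members and their values are given as a description. The 2 comparisons share the input libraries, and the numerator arm is given for neither. Their signs are therefore set side by side and no relation between them is drawn. With m6A and RNA both positive stood 3 members, in Ubl5, a ubiquitin-like splicing factor, Nfkbie, an inhibitor of NF-kB, and Kctd3, an adaptor of ion channels. For Ubl5 the m6A difference was 0.42 and the RNA fold change 0.50 ± 0.11, and for Nfkbie they were 0.34 and 0.36 ± 0.10 in the authors' deposited table. With m6A positive and RNA negative stood 6 members. Among them Htatsf1, an elongation and splicing cofactor, had 0.21 for m6A over 992 bases and -0.39 ± 0.09 for RNA in the authors' deposited table. Golga4, a golgin of the trans-Golgi, had 2 such members with 0.25 and 0.21 beside -0.68 ± 0.17 for RNA in the authors' deposited table. For Cmya5 the m6A value was 0.12 beside -2.08 ± 0.59 for RNA in the authors' deposited table, and this member shares 350 bases with a peak listed on the other strand. With m6A negative and RNA positive stood 5 members. Themis2, a signalling adaptor of B cells and macrophages, had -0.24 beside 0.41 ± 0.12, and Asf1b, a histone chaperone of dividing cells, had -0.62 beside 0.42 ± 0.14 in the authors' deposited table. Itpkb, an inositol phosphate kinase needed for lymphocyte development, had -0.14 beside 0.29 ± 0.10 in the authors' deposited table. The other 2 lay in Evi2, with -0.26 and -0.40 beside an RNA value of 11.05 ± 2.90 in the authors' deposited table, a fitted number at a mean count of 196 that is not read as a fold. They share 540 and 647 bases with 2 members of Evi2b on the same strand, with differences of -0.24 and -0.38 in the authors' deposited table, so the reads behind them could belong to either gene. Both negative were Amotl2, an angiomotin of the Hippo pathway, with -0.49 beside -0.52 ± 0.12, and Tfpi, the inhibitor of tissue factor, with -0.55 beside -0.44 ± 0.13 in the authors' deposited table.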

How the data were processed

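Both tables hold the authors' own comparisons, with 0 columns of single libraries, so no model was fitted and no library could be left out. Per the submitters' processing notes, HISAT2, StringTie, DESeq and the rat build rn6 were used, with no roles or versions (the peak caller and any pooling of libraries: not given in the sources used here). Of peaks with a gene symbol known to RefSeq's GRCm38.p6, 99.8% fell within that gene and 28 on the minus strand ended exactly at its first base, so GRCm38 positions were used, counted from 1.

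For peaks, the authors deposited a p-value, log10 p and FDR, a ratio (IP over input) and, per the file headers, the log2 difference between arms, with log10 p and false discovery rate as a score. For RNA, the authors deposited the mean of size-factor normalized counts (a signal), log2 fold changes, standard errors, a Wald score and p-values. The mean counts summed to 43717045, and the depth of single libraries is unknown. If libraries of an arm do not come from separate animals, the deposited p-values measure technical spread. If reads of an arm were pooled for the m6A difference, its p-values do not measure spread between animals in either case.

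Counts, medians and overlaps were computed with pandas 2.3.3, numpy 2.4.6 and scipy 1.17.1 on Python 3.11.15, checked on simulated peaks, and drawn with matplotlib 3.10.9. No member was filtered out. The members and the 15 gene lists were chosen with earlier results of these data known. The genes named are the 6 longest and 6 most enriched members, 6 per direction by smallest difference p, the genes with most members, members of the lists with p under 0.05 or else the 2 most enriched, and up to 4 genes per combination of signs with RNA; other genes printed, such as Csf1, Wtap, Prrc2a, Fzd7, Rag1, Rag2, Xirp2, the noncoding genes and the overlapping pairs, were picked with their values in view. Position by coding region and motif shares over all peaks were not run. Some items are not reported here.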

Additional observations from a re-analysis of the deposited data

How the results depend on the processing

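The peak table has 1 value per peak, so its precision cannot be stated. At a minimum length of 150, 250 or 300 bases there were 3856, 1320 and 794 members, with median enrichments of 2.02, 2.285 and 2.405, and 153, 63 and 44 had a difference p under 0.05 (3.97%, 4.77% and 5.54%). Taking the most enriched member of each gene gave a median of 2.23. Of the 95 members with p under 0.05, 26 had p under 0.01 (1.17%, against 1.44% of all peaks), 0 had a false discovery rate under 0.05 in the authors' deposited table, and 55 had an enrichment of at least 2. Of the 241 member genes called for RNA, 36 changed by at least 1 in log2 size. Keeping all names, a log10 FDR of -3 or lower, the first member of each gene, 1 member per overlapping set and, for RNA, a mean count of at least 50 moved none of the values they were applied to beyond the limits set. No paired analysis was possible because the tables hold no value for a single library, and for the same reason no library was left out in turn. The alternatives on the motif and on coding position were not run. Counting overlapping sets once, the end of the peak for its position, and leaving names out of the compared classes too were chosen after seeing the data.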
